A study of Mus musculus with 4 samples.

Results

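Lipases free fatty acids from stored or circulating fat, and their transcripts were followed here in mouse aorta through 8 genes. Lipa codes for lysosomal acid lipase, Pnpla2, Lipe and Mgll for the cytosolic lipases, Lpl and Lipc for the lipoprotein lipases, and Angptl4 and G0s2 for inhibitors of such enzymes. A probe set was taken when the probe table listed a member as its only gene symbol. This gave 12 of the 12488 probe sets on the array, for 7 of the 8 genes and of the 8251 genes named on it: 1 each for Lipa, Lipe, Pnpla2 and G0s2, 2 each for Mgll and Lpl, and 4 for Angptl4. Lipc, the lipase of liver sinusoids, had 0 such probe sets and is not analysed here.

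The enzymes work in 3 compartments. In the cytosol, Pnpla2 (adipose triglyceride lipase) removes the first fatty acid from a triglyceride, Lipe (hormone-sensitive lipase) the next and Mgll (monoglyceride lipase) the last, while G0s2 binds Pnpla2 and blocks it. Lysosomal acid lipase splits cholesteryl esters and triglycerides that reach the lysosome, with macrophages among the cells that depend on it most. Lipoprotein lipase acts at the vessel surface on triglyceride-rich lipoproteins and is inactivated by Angptl4. PPARγ, the nuclear receptor that rosiglitazone activates, is a master regulator of fat cells, and Angptl4 is one of its known target genes.

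RNA had been pooled from aortas of adult male mice of the C57BL/6J strain. The rosiglitazone group had received that drug at 25 mg/kg per day for 21 days and the vehicle group had received vehicle for 21 days, with 2 Affymetrix MG-U74Av2 arrays in each. The labels do not give the number of mice in a pool, the vehicle or the route, nor whether the arrays of a group held separate pools. The p-values below therefore cover only differences among these arrays, whose spread may be technical, and the small number of arrays limits every value. Values are linear array intensities, and differences are rosiglitazone minus vehicle on the log2 scale, with a standard error (SE) from limma.

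The arrays shared a common scale, with median intensities of 591 and 620 with rosiglitazone against 648 and 635 with vehicle. Smooth muscle markers were present on every array, as for aorta: Acta2, smooth muscle actin, had 28866 and 33031 with rosiglitazone against 56544 and 80133 with vehicle. Some adipocyte markers were bright on every array too. Adipoq, the fat cell hormone adiponectin, had 165554 and 195068 with rosiglitazone against 125080 and 136822 with vehicle, and Ucp1, the uncoupling protein of brown fat, had 97796 and 73418 against 54981 and 33472 with vehicle. Car3, a white fat marker, overlapped between the groups, at 134992 and 123723 with rosiglitazone against 132951 and 127472 with vehicle. Other adipocyte markers were dim. Elovl3 had 581 and 218 with rosiglitazone against 72 and 329 with vehicle. Ppargc1a had 579 and 368 with rosiglitazone against 208 and 234 with vehicle. Which cells of the tissue gave the lipase signal was not tested, and in pooled tissue a change in the number of cells of a type and a change in RNA per cell cannot be told apart. The ratio of 3′ to 5′ signal of Gapdh, a measure of RNA integrity, was 8.79 and 10.8 with rosiglitazone against 11.1 and 11.1 with vehicle, lower on both rosiglitazone arrays. The same ratio for beta-actin was 7.74 and 9.62 with rosiglitazone against 8.88 and 11.9 with vehicle, with overlap. On all 4 arrays the 3′ signal of both transcripts was thus at least 7.74-fold the 5′ signal, a strong bias toward the 3′ end that limits every value here. The part of RNA integrity in the lipase values was not tested.

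To show the sequence at the starts of the cytosolic and lysosomal lipase genes that were higher with rosiglitazone without overlap and had an entry in the RefSeq promoter table (GRCm38.p6), the 250 bases before each annotated start of Lipa, Lipe, Pnpla2 and Mgll are printed 5′ to 3′ on the strand of the gene. The window of Lipa is chr19:34527475-34527724 on the minus strand. Lipe has 2 annotated starts, with windows at chr7:25395988-25396237 and chr7:25390113-25390362 on the minus strand. The window of Pnpla2 is chr7:141454938-141455187 on the plus strand. Mgll has 2 annotated starts, with windows at chr6:88724162-88724411 and chr6:88724454-88724703 on the plus strand. Capitals mark matches, on either strand, to any of 4 motifs described after the sequences.
Lipa: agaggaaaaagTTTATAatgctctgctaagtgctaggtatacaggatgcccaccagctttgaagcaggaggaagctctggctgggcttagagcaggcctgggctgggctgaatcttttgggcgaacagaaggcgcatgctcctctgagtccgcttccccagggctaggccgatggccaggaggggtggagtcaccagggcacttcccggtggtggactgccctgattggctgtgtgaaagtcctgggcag
Lipe outer start: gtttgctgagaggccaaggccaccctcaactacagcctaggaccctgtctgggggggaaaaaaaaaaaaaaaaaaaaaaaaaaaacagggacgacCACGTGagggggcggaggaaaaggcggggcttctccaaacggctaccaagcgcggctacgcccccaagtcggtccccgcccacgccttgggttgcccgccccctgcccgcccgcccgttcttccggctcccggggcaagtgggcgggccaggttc
Lipe inner start: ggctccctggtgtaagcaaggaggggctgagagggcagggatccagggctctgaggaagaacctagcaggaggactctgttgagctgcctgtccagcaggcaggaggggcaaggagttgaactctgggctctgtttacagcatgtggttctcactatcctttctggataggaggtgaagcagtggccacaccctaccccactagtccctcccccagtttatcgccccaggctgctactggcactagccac
Pnpla2: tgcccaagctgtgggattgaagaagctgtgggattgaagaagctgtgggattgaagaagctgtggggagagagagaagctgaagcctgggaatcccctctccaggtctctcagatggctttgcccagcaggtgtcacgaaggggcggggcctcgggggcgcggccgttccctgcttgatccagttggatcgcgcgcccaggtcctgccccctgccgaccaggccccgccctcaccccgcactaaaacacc
Mgll outer start: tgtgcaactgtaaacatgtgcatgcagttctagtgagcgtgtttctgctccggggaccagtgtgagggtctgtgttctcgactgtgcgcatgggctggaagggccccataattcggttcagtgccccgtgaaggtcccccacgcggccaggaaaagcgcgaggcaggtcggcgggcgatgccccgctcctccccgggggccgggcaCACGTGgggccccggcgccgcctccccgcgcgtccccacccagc
Mgll inner start: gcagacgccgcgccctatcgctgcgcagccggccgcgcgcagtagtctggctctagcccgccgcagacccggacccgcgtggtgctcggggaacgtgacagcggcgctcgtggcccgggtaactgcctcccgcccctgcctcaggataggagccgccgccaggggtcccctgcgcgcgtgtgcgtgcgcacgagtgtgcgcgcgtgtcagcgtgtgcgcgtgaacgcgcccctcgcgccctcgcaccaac
The motifs searched on both strands were AGGTCA, the hexamer that PPARγ and its partner RXR bind, AGGTCANAGGTCA, the direct repeat of that hexamer with 1 base between, CACGTG, the core of the E-box bound by the lysosomal regulator TFEB among others, and TATAAA, the TATA box. The direct repeat contains the hexamer, and the other motifs do not overlap with each other. Neither AGGTCA nor AGGTCANAGGTCA occurred in the 6 windows printed. Among all 32851 windows of this length in the table, 14% held AGGTCA and 0.0335% held AGGTCANAGGTCA. CACGTG occurred in the outer Lipe window and in the outer Mgll window, against 6.02% of all windows, and TATAAA on the opposite strand near the far end of the Lipa window, against 12.4%. Of the 9 windows that the table held for 6 members, AGGTCA occurred only in the inner window of Lipc, at 2 places, and CACGTG and TATAAA in no window beyond those named. Response elements outside these windows, or with other letters, were not searched.

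Lipa had by far the widest separation of the 12 probe sets. Its array values were 3103 and 1880 with the drug against 220 and 229 with vehicle, a log2 difference of 3.43 (SE 0.52, n = 2 each) or 10.8-fold. Every pairing of a rosiglitazone array with a vehicle array gave between 8.21-fold and 14.1-fold. The rosiglitazone arrays differed from each other far more than the vehicle arrays did, with SDs of 0.51 and 0.04 on the log2 scale. On the vehicle arrays the probe set lay at the percentiles 26.2 and 27.6 of all values of its array, and on the rosiglitazone arrays at 86.3 and 77.7. The vehicle values were thus dim, although above the floor of 148 that was set before log2 was taken, and the table holds no detection calls to say whether they exceeded background. Among the 7134 probe sets that passed a filter on mean intensity and were tested, this difference ranked 1 among those higher with rosiglitazone, while 14 probe sets had a larger difference in the other direction.

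**Figure D1:**
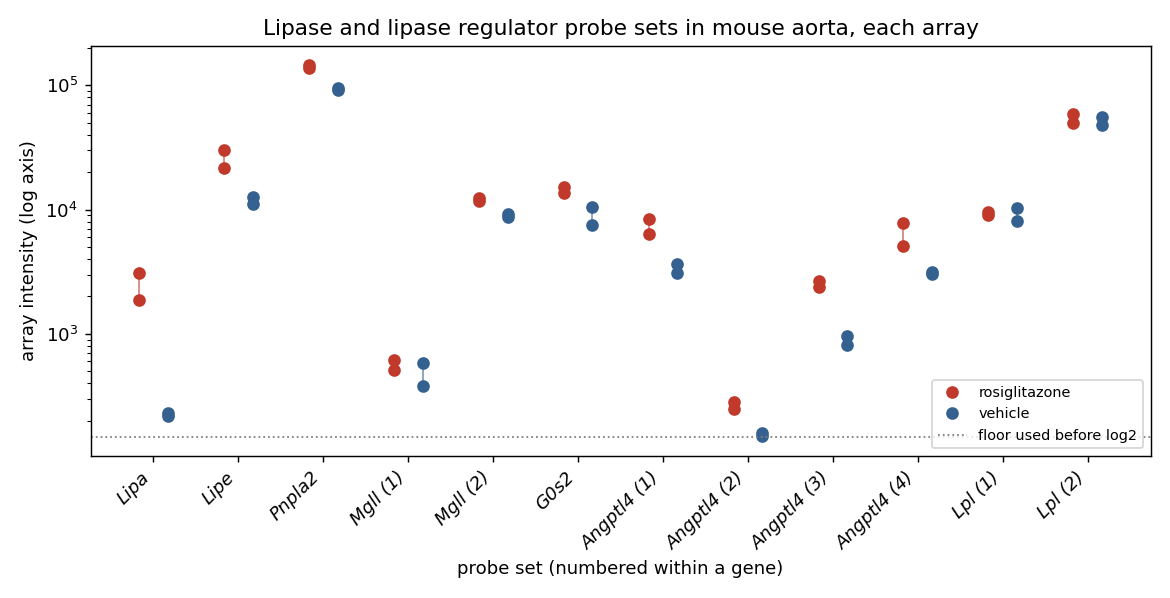
Array intensity on a log axis for each of the 12 probe sets, with 1 point per array, rosiglitazone on the left and vehicle on the right of each pair, and a line joining the 2 arrays of a group. Lipa stands at 3103 and 1880 with rosiglitazone and at 220 and 229 with vehicle, close to the dotted floor of 148, whereas the points of both Lpl probe sets overlap between the groups.

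Each cytosolic lipase had a probe set that was brighter with rosiglitazone without overlap, by much less than Lipa, with Lipe first, then Pnpla2, then Mgll. Lipe had 30011 and 21584 with rosiglitazone against 12695 and 11031 with vehicle, so that the lower rosiglitazone array exceeded the higher vehicle array 1.7-fold. The log2 difference of Lipe was 1.10 (SE 0.23, n = 2 each). Pnpla2, among the brightest probe sets of the array, had 146776 and 137138 with rosiglitazone against 92085 and 94365 with vehicle. Its groups did not overlap and were tight, with SDs of 0.07 and 0.02, and the difference was 0.61 (SE 0.21). Mgll gave 12414 and 11815 with rosiglitazone against 8726 and 9139 with vehicle on probe set 97511_at, again without overlap (0.44, SE 0.20). The other Mgll probe set, 97510_at, was dim, with 515 and 612 with rosiglitazone against 578 and 380 with vehicle, and its groups overlapped (0.26, SE 0.67). The differences of Pnpla2 and of Mgll on 97511_at lay within 1 SE of each other, so their order is not settled.

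G0s2, the inhibitor of Pnpla2, was brighter with rosiglitazone as well. It had 15152 and 13524 with rosiglitazone against 10557 and 7504 with vehicle, with no overlap. The difference of 0.69 (SE 0.23, n = 2 each) was within 1 SE of that of Pnpla2 itself. It was 0.44 without vehicle replicate 4 and 0.93 without vehicle replicate 3. The difference between the lipase and its inhibitor was not tested.

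Angptl4 was brighter with rosiglitazone on every probe set, whereas Lpl, the enzyme that it inactivates, overlapped between the groups; the difference between both genes was not tested. Of the 4 Angptl4 probe sets, 96118_at had 2676 and 2399 with rosiglitazone against 968 and 808 with vehicle, a difference of 1.52 (SE 0.34, n = 2 each) or 2.86-fold. Probe set 102114_f_at had 8414 and 6326 with rosiglitazone against 3617 and 3075 with vehicle (1.13, SE 0.25). Probe set 96119_s_at had 7846 and 5090 with rosiglitazone against 3171 and 3020 with vehicle (1.03, SE 0.27). On all 3 both rosiglitazone arrays lay above both vehicle arrays. The 4th, 161518_r_at, failed the filter on low intensities, with 249 and 285 with rosiglitazone against 160 and 150 with vehicle, also without overlap. The suffixes f and s mark probe sets that can share sequence with related transcripts, and r those that break a probe design rule, so 96118_at is the least ambiguous of these.

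Lpl had similar intensities in both groups. Probe set 95611_at had 49978 and 58429 with rosiglitazone against 47653 and 55461 with vehicle, a difference of 0.07 (SE 0.21, n = 2 each). Probe set 160083_at had 9520 and 9092 with rosiglitazone against 10262 and 8026 with vehicle, a difference of 0.04 (SE 0.22). The groups overlapped on both. With 1 array left out in turn the differences ran from -0.14 to 0.21 on 160083_at and from -0.04 to 0.18 on 95611_at, so no direction can be given for Lpl.

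The 8 genes were chosen by their place in fat breakdown and with the Lipa intensities and the other differences of this contrast already known, so the values above describe them and support nothing further. In limma 1 of the 11 tested probe sets, that of Lipa, was past an adjusted p of 0.05, beside 0.364% of all 7134. The vehicle values of Lipa lay under the filter intensity of 414, so the probe set was tested only through its rosiglitazone values, and with no filter its adjusted p in limma was 0.303. Leaving out any 1 of the 4 arrays ended the Lipa call, with differences between 3.07 (rosiglitazone replicate 1 left out) and 3.79 (rosiglitazone replicate 2 left out). Without rosiglitazone replicate 2 Lipe passed instead, at 1.34. On 8 of the 11 probe sets both rosiglitazone arrays lay above both vehicle arrays, as on 19% of all tested, and 11 of 11 had a difference above 0, as did 48.1% of all. The median difference was 0.69 over the 11 and -0.02 over all tested. Angptl4 accounts for 3 of the 11 and Mgll and Lpl for 2 each, so these are not 11 separate observations.

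**Figure D2:**
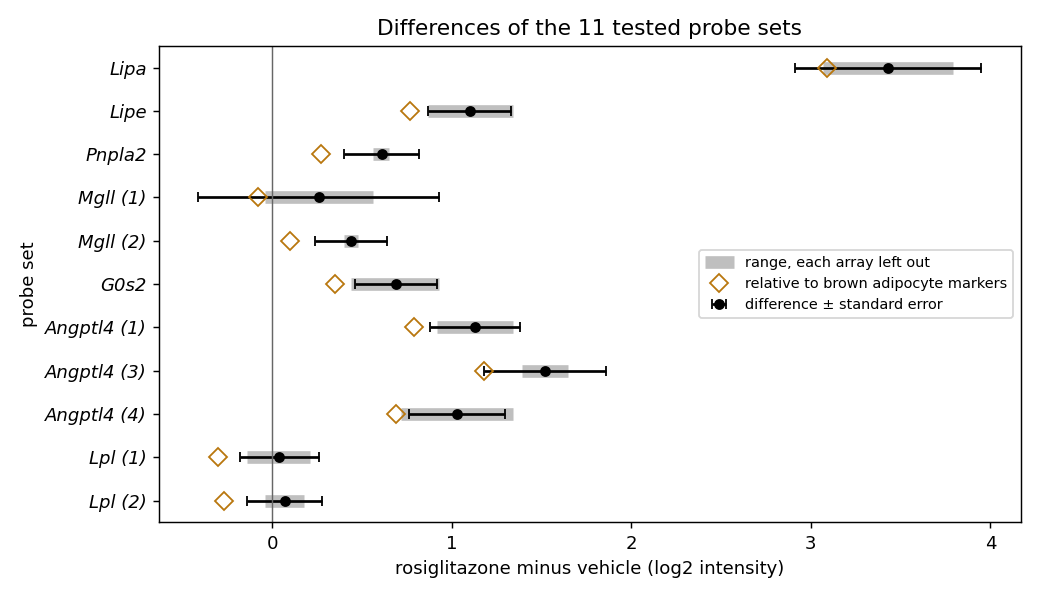
Rosiglitazone minus vehicle on the log2 scale for the 11 tested probe sets, with the SE as bars (n = 2 arrays per group), the range with each array left out in grey, and the difference relative to brown adipocyte markers as open diamonds. Lipa lies at 3.43 and both Lpl probe sets lie close to 0, at 0.04 and 0.07.

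Markers of other cell types moved between the same arrays. Of the brown adipocyte markers 4 of 5 tested lay above 0, with a median difference of 0.34. Their summed intensity over 7 markers was 383123 and 412975 with rosiglitazone against 280919 and 277027 with vehicle. White adipocyte markers summed to 322053 and 341780 with rosiglitazone against 276561 and 282373 with vehicle over 5 markers, with a median difference of -0.01 and 2 of 5 above 0. Macrophage markers had a difference below 0 for 11 of 11, 10 of them without overlap, with a median of -0.86. Over all tested probe sets, 21.8% were lower without overlap. Second tested probe sets of Laptm5, Csf1r and C1qb had -1.10, -0.02 and 0.15. The macrophage sums were 32266 and 29135 with rosiglitazone against 73678 and 78216 with vehicle. Cd14 carried much of this gap, at 3496 and 3642 with rosiglitazone against 27529 and 26830 with vehicle. Thus Lipa was brighter on the arrays on which macrophage markers were dimmer. Smooth muscle markers had a difference below 0 for 6 of 6, 5 of them without overlap, with a median of -1.30 and sums of 47993 and 51303 with rosiglitazone against 102449 and 124089 with vehicle. No intensity in the table is 0, and on no array did a macrophage or smooth muscle marker fall under the floor, while the brown adipocyte marker Elovl3 did so on 1. The part of any of these cell types in the lipase values was not tested.

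Neutrophil markers summed to 5573 and 6491 with rosiglitazone against 126526 and 193130 with vehicle over 7 genes, with a median of -0.67 over 6 tested. S100a8 and S100a9 carried this gap: the other 5 genes summed to 3882 and 3409 with rosiglitazone against 5098 and 5679 with vehicle. The summed intensity of 7 endothelial markers overlapped between the groups, at 13546 and 15793 with rosiglitazone against 14652 and 18988 with vehicle. Singly, 4 of these markers were lower and 1 was higher without overlap, beside 21.8% and 19% of all tested. The higher marker was Cldn5 at 1.45 (limma adjusted p = 0.078), and the median of the endothelial markers was -0.37. The summed erythrocyte markers overlapped too, at 479335 and 633999 with rosiglitazone against 518851 and 590686 with vehicle over 3 genes, with 2 of 3 above 0. Hba-a1 carried this sum, at 467487 and 616423 with rosiglitazone against 493863 and 569180 with vehicle. Alas2 was lower without overlap (-0.73), at 11147 and 16591 with rosiglitazone against 24167 and 21164 with vehicle. Hepatocyte markers, which would accompany Lipc, summed over 6 genes to 1891 and 3364 with rosiglitazone against 3319 and 2241 with vehicle. Steroidogenic markers, of cells that use Lipe and Lipa to free cholesterol, summed over 4 genes to 4323 and 5283 with rosiglitazone against 5304 and 5562 with vehicle.

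The members were also set against brown adipocyte markers within each array, an alternative chosen after seeing the data. The mean difference of the 5 tested markers was 0.34, but singly they ran from -0.33 for Dio2 to 0.98 for Ucp1. Second probe sets of Ucp1 and Cox8b had 0.42 and 0.67, so values on this scale depend on the markers chosen. Relative to them the difference between the groups stood at 3.09 for Lipa, 0.77 for Lipe and 1.18, 0.79 and 0.69 for Angptl4, all without overlap. Pnpla2 stood at 0.27, still without overlap. G0s2, at 0.35, and Mgll, at 0.10 and -0.08, overlapped on this scale. Both Lpl probe sets had a relative difference below 0, at -0.27 and -0.30, with both rosiglitazone arrays under both vehicle arrays. The scale lowers every difference by the same 0.34, so any member with a smaller difference had to fall below 0. The mixed directions thus follow from the reference chosen, and only unequal change, not the absence of change, can be read from such a ratio.

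Genes that work with the cytosolic lipases are described next, as context for them. Of 32 such genes, 17 had a probe set and 13 were tested. None (0) passed an adjusted p of 0.05 in limma in either direction, where 0.0421% of all tested probe sets were higher and 0.322% lower at that threshold. At an unadjusted p under 0.05, 6 were higher and 0 lower, beside 5.12% and 5.76% of all tested. This list and the other partner lists were chosen with earlier results of these data known, so their counts are a description and support nothing further. The median difference was 0.44. Aqp7, the channel through which glycerol leaves the fat cell, had 4257 and 4593 with rosiglitazone against 1533 and 1620 with vehicle, a difference of 1.49 (SE 0.27, limma adjusted p = 0.0687). Ces1d, a carboxylesterase that also hydrolyses triglycerides in fat, had 123299 and 92701 with rosiglitazone against 55202 and 45169 with vehicle, a difference of 1.10 (limma adjusted p = 0.0895), and its second probe set had 0.58. Without rosiglitazone replicate 2 Ces1d passed, at 1.30 (limma adjusted p = 0.0382).

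The lipid droplet protein Plin4 had 5719 and 6496 with rosiglitazone against 3060 and 3262 with vehicle (0.95, limma adjusted p = 0.144). Dgat1, which makes triglyceride from diglyceride and so works against the lipases, had 8460 and 7952 with rosiglitazone against 4657 and 4459 with vehicle (0.85, limma adjusted p = 0.158), but its second probe set had -0.03. Fabp5, a fatty acid carrier, had a difference of 0.80 without overlap (limma adjusted p = 0.266). Fabp4, the carrier most typical of fat cells, had 4155 and 6415 with rosiglitazone against 5752 and 6005 with vehicle, with overlap (-0.19). Abhd5, the activator of Pnpla2, had 3228 and 3085 with rosiglitazone against 2946 and 3406 with vehicle (-0.01, SE 0.26). The activator thus differed by less than its SE on the arrays on which G0s2 and Pnpla2 were brighter. Plin1 is not analysed here. A total of 4 genes of the list failed the filter, all named after their values were seen. Faah, a hydrolase of fatty acid amides, had 648 and 717 with rosiglitazone against 177 and 168 with vehicle. Cideb, a lipid droplet protein, had 829 and 782 with rosiglitazone against 207 and 116 with vehicle, and Npr1, the natriuretic peptide receptor, had 28 and 93 with rosiglitazone against 275 and 308 with vehicle, in the other direction. Prkar2a, a regulatory subunit of protein kinase A, lay under the floor on all 4 arrays. Of this list Cidea is also counted among the brown adipocyte markers.

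**Figure D3:**
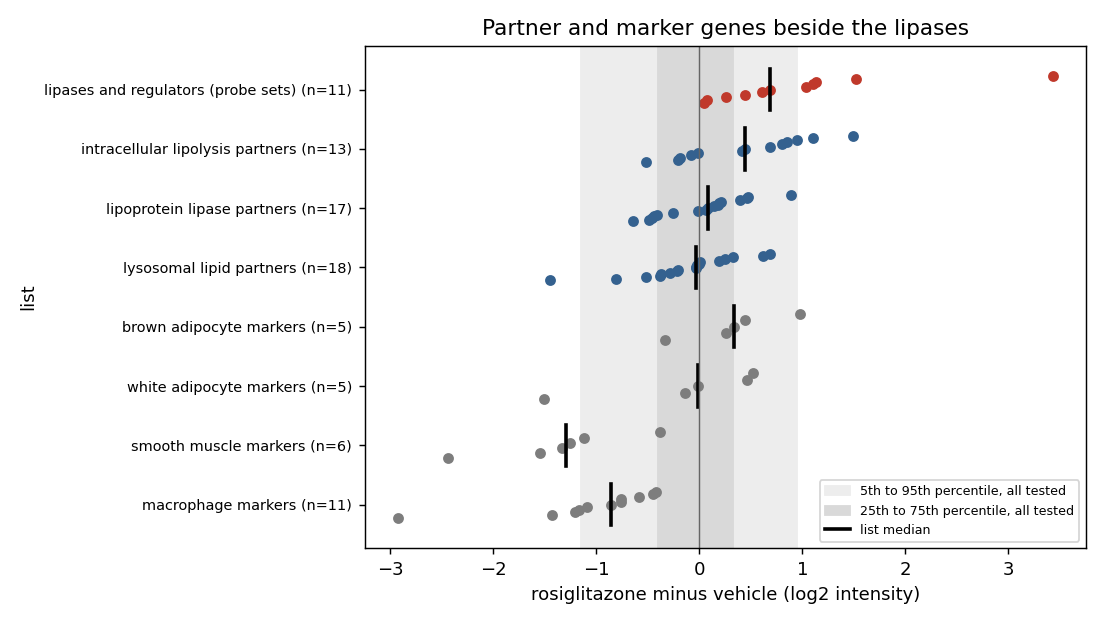
Rosiglitazone minus vehicle on the log2 scale for the tested probe sets of the lipases and their inhibitors, the tested genes of 3 partner lists and the tested markers of 4 cell types (1 point per partner or marker gene on its brightest tested probe set), with list medians as bars and the spread of all 7134 probe sets shaded. The lipases and the cytosolic partners have medians of 0.69 and 0.44, while the lysosomal partners of Lipa have a median of -0.03 and a highest value of 0.69.

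Partners of lipoprotein lipase were spread around 0, like Lpl itself. Of 29 genes 22 had a probe set and 17 were tested, with a median of 0.08 and 10 above 0. None (0) passed in limma, and at an unadjusted p under 0.05 there were 0 higher and 1 lower. That gene was Apoe, an apolipoprotein by which remnant particles are taken up, with 79071 and 76328 with rosiglitazone against 109143 and 108601 with vehicle, a difference of -0.49 (limma adjusted p = 0.431). Scarb1, the receptor for high-density lipoprotein, had 4277 and 4539 with rosiglitazone against 3107 and 3237 with vehicle (0.47, limma adjusted p = 0.532). Lmf1 and Sel1l, which the cell needs to fold and export lipoprotein lipase, had differences of 0.39 and 0.89, the first without and the other with overlap, and the value of Sel1l was 0.05 without vehicle replicate 4 and 1.73 without vehicle replicate 3. Cel, a bile-salt-activated lipase, had -0.46 without overlap, and Cd36, a fatty acid transporter, had 0.19 with overlap. Apoc2, the activator of Lpl, was too dim to be tested, with 186 and 288 with rosiglitazone against 188 and 877 with vehicle. Gpihbp1, which anchors Lpl to capillaries, and Lipg, endothelial lipase, are not analysed here.

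The tested lysosomal partners of Lipa were spread around 0. Lipa ranked 1 among all tested probe sets higher with rosiglitazone, so a smaller rise in any partner was fixed beforehand. Of 29 genes 22 had a probe set and 18 were tested, and 7 lay above 0 and 11 below, with a median of -0.03 and a range from -1.45 to 0.69. None (0) passed in limma, with 2 higher and 0 lower at an unadjusted p under 0.05. These 2 were Smpd1, acid sphingomyelinase, with 12456 and 9719 with rosiglitazone against 7866 and 5932 with vehicle (0.69, limma adjusted p = 0.333), and Psap, the precursor of the saposins, with 18133 and 17920 with rosiglitazone against 13886 and 9892 with vehicle (0.62, limma adjusted p = 0.353). A second tested Psap probe set had 0.58. Lamp2, a protein of the lysosomal membrane, and Glb1, lysosomal beta-galactosidase, had -0.52 and -0.81 without overlap. Asah1, acid ceramidase, had 1234 and 81 with rosiglitazone against 1019 and 1339 with vehicle, so its -1.45 came from rosiglitazone replicate 2, and the value was 0.08 without that array.

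Cholesterol freed by lysosomal acid lipase leaves the lysosome through Npc2 and Npc1 and the cell through Abca1 and Abcg1. Npc1 had 3424 and 3245 with rosiglitazone against 2599 and 3031 with vehicle (0.25, SE 0.26). Npc2 had 18845 and 26550 with rosiglitazone against 24706 and 27238 with vehicle (-0.21, SE 0.22). Abca1 had 1348 and 1876 with rosiglitazone against 1647 and 2290 with vehicle (-0.29, SE 0.35), and Abcg1 had 3271 and 3390 with rosiglitazone against 3563 and 1970 with vehicle (0.33, SE 0.33). The groups overlapped for Npc2, Abca1 and Abcg1, and each of these 4 differences was about the size of its SE or smaller. The lysosomal proteases of the list were named after their values were seen. Ctsd had 43482 and 45126 with rosiglitazone against 43294 and 45144 with vehicle, a difference of 0. Ctsb was lower on all 4 tested probe sets, at -0.37 with overlap on the brightest and -1.03, -0.83 and -0.50 on the others. Ctsl had -0.22 without overlap, and Tpp1 had -0.03 with overlap.

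The 5 probe sets whose profile over the 4 arrays was nearest to that of Lipa belonged to Sh3bp2, B3galt2, Syn2, Esr1 and Timm10b. Likeness was the Euclidean distance between log2 intensities centred on the mean of each probe set, over 6392 other probe sets with 1 symbol, and ran from 1.13 for Sh3bp2 to 1.41 for Timm10b. No probe set (0) lay within a distance of 1. Sh3bp2, an adaptor protein, had 1057 and 1587 with rosiglitazone against 199 and 169 with vehicle, on a probe set with the suffix r. B3galt2 was uneven with the drug, at 2625 and 832 with rosiglitazone against 289 and 151 with vehicle. Esr1, the oestrogen receptor alpha, had 1026 and 879 with rosiglitazone against 254 and 151 with vehicle. All 5 were dim with vehicle, as Lipa was, under the filter intensity of 414, so they were tested only through their rosiglitazone values. Their differences ran from 2.28 for Esr1 to 2.82 for Sh3bp2 and B3galt2, and large values follow from the choice by likeness to Lipa. None (0) passed in limma, with adjusted p from 0.139 for Sh3bp2 to 0.315 for Esr1.

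**Figure D4:**
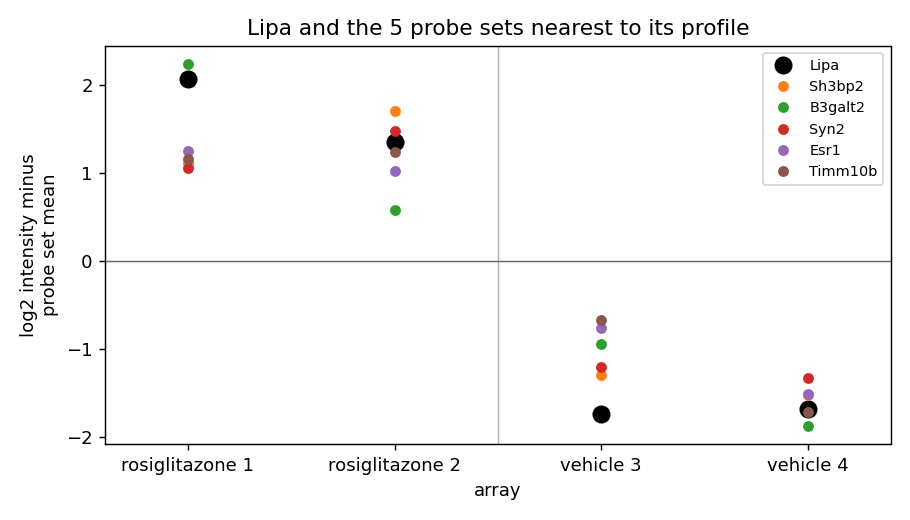
Log2 intensity minus the mean of the probe set over the 4 arrays, for Lipa (large black points) and the 5 nearest probe sets, with the rosiglitazone arrays on the left and the vehicle arrays on the right. All 6 lie above 0 on both rosiglitazone arrays and below 0 on both vehicle arrays, which follows from the choice of the 5 by likeness to Lipa. The nearest of the 5, Sh3bp2, is at a distance of 1.13 from Lipa.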

How the data were processed

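RNA was measured on 4 Affymetrix MG-U74Av2 arrays, the platform named in the header of the probe table. The authors deposited 1 whole-number intensity per probe set and array on a linear scale. The sources used here do not say how these values were made. Medians of the arrays lay within 0.13 on the log2 scale, under a limit of 0.2, so no further scaling was applied. Groups came from the sample titles. No test used the 66 control probe sets. Intensities under 148 (20th percentile of all values) were set to it before log2, and probe sets with a mean log2 intensity at or above that of 414 (40th percentile) were kept, 7134 in all. The contrast was fitted with limma 3.58.1 under R 4.3.3 (lmFit, then eBayes with trend by intensity), and two-sided p-values were adjusted by Benjamini-Hochberg over all 7134. The procedure was tested on simulated data.

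Of 12422 other probe sets, 10833 had 1 gene symbol, 396 several and 1193 none listed. Symbols came from the platform's probe table, and 10817 identifiers were found in a table of GRCm38.p6, which changed 0 symbols. Probe sets with several symbols named no gene. For partner lists and markers, the brightest tested probe set of a gene was used. The members and lists were chosen with earlier results of these data known. All probe sets of the members were named, and from each partner list the 5 genes with the smallest p, any past the threshold and 12 set genes. The 5 probe sets nearest to Lipa were added, and other names were chosen after their values were seen. Floor, filter, scaling, log transform, variance model and single arrays were varied.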

Additional observations from a re-analysis of the deposited data

How the results depend on the processing

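No paired analysis was possible because the arrays are numbered 1 and 2 for rosiglitazone and 3 and 4 for vehicle, with no shared number. The 26 probe sets past an adjusted p of 0.05 in limma became 17 without a floor, 17 with each array centred on its median, 7 without the intensity trend, and 0 with no filter or a floor at the 40th percentile (with 1202 and 933 of 12422 at an unadjusted p under 0.05). The higher floor has the intensity of the filter, so all probe sets entered and both choices changed at once. The count ran from 1 to 78 with each array left out. Of the members, 1 probe set passed, that of Lipa, and 7 of 11 had an unadjusted p under 0.05 in limma, beside 776 of all 7134. With no filter (Lipa at an adjusted p of 0.303), the higher floor (0.503), centring (0.0505) or no trend (0.122), 0 passed. In that order 7 of 12, 6 of 12, 8 of 11 and 5 of 11 had an unadjusted p under 0.05. Over all probe sets, centring gave 798 of 7133 and no trend 593 of 7134 at that level. The members were chosen with this contrast known, so these counts support nothing further. The Lipa difference was 2.54 at the higher floor and from 2.96 to 3.51 under the other planned settings that kept all 4 arrays. With each array left out the member count ran from 0 to 1, the adjusted p of Lipa from 0.0506 to 0.569, and the 1 was Lipe without rosiglitazone replicate 2. Partners of the cytosolic lipases past the threshold ran from 0 to 1 with each array left out, the 1 being Ces1d. Of 132 member values under an alternative, 121 moved by less than 1 SD and 8 fell below 0, on Lpl and the dim Mgll probe set. Dropping the filter or the intensity trend cannot change a log2 difference. Removing the floor could not either, because the tested members lay above it on every array. The 121 therefore include many values that were fixed beforehand and are no measure of stability. Abhd5 turned positive on centring (0.08) and quantile normalization (0.01). With each array left out the sign also turned for Abhd5 (-0.11 to 0.10), Fabp4 (-0.50 to 0.13), Cd36 (-0.23 to 0.62), Asah1 (-2.98 to 0.08), Abcg1 (-0.10 to 0.76) and Npc2 (-0.46 to 0.03). The causes of these moves were not tested. Without detection calls, signal over background cannot be judged, which limits the fold of Lipa, dim with vehicle.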
